A study of Mus musculus with 18 samples.

Results

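The antioxidant and glutathione genes described here are Nfe2l2, Nqo1, Hmox1, Gclc, Gclm, Txnrd1, Srxn1, Gsr, Sod2 and Cat. They were picked by gene symbol, with earlier results of these data known. All 10 were found among the 23420 rows of each deposited table and passed the filter on low values in every line. Their RNA was measured in whole lungs of mouse embryos at 14.5 days post coitus (dpc), while the airways branch. In each of 3 mouse lines a different gene was deleted in the lung epithelium, and 3 deficient lungs were compared with 3 control lungs, 18 samples in all.

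Glutathione is the main small thiol of the cell. Glutamate-cysteine ligase, made of the catalytic subunit GCLC and the modifier subunit GCLM, makes its precursor from glutamate and cysteine, and glutathione reductase (GSR) returns oxidised glutathione to the reduced form. A parallel thioredoxin system is kept reduced by thioredoxin reductase (TXNRD1), while sulfiredoxin (SRXN1) repairs overoxidised peroxiredoxins. Many of these genes are switched on by the transcription factor NRF2, the product of Nfe2l2, which binds antioxidant response elements and is held in check by KEAP1. NQO1 (a quinone reductase) and HMOX1 (heme oxygenase 1) are classical NRF2 targets, SOD2 is the superoxide dismutase of mitochondria, and catalase (CAT) breaks down hydrogen peroxide in peroxisomes.

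The control lungs were Rptorf/+; ShhCre/+, Tfamf/+; ShhCre/+ or Cox10f/+; ShhCre/+ and the deficient lungs Rptorf/f; ShhCre/+, Tfamf/f; ShhCre/+ or Cox10f/f; ShhCre/+, so that by the labels and the methods every control also carried the Cre and had 1 floxed allele of the gene deleted in its line. A legend of the study writes the controls with ShhCre/+ alone, which was not settled here. Rptor encodes a subunit of mTORC1, a kinase complex that couples nutrients to growth. Tfam encodes a factor that maintains mitochondrial DNA, and Cox10 an enzyme needed for cytochrome c oxidase. The Cre is expressed from the Shh locus and acts in the epithelium, while the RNA came from all cells of the lung. The study's methods call the controls littermates. Whether each sample is 1 embryo is not stated for this stage, and the p-values set differences between groups against the spread between these samples.

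Values are normalised reads, that is, reads of a gene after division by the size factor of its library, and they summed to 27725300 to 29608800 per sample with 17667 to 17907 genes above 0. The targeted genes did not serve as a check of the labels, because the tables give whole-gene values from whole lungs. Rptor ranged from 2197 to 2298 normalised reads in control lungs of its line and from 1986 to 2442 in deficient lungs, and Tfam and Cox10 also overlapped between their groups. Epithelial markers (Epcam, Cdh1, Nkx2-1, Krt8, Krt18 and Sftpc) were present in every library. Their summed level was 30249 to 36091 in Rptor control and 10012 to 16422 in Rptor-deficient lungs, and all 6 markers fell. In the same lungs all 8 macrophage markers rose (summed level 4463 to 4948 in control and 7233 to 8694 in deficient lungs), as did 6 of 7 mesenchymal markers (186994 to 217699 and 378813 to 409488) and 5 of 6 endothelial markers (27937 to 29168 and 34690 to 39797), while 3 of 4 smooth muscle markers fell and 1 rose. The heart muscle marker Myh7 (1.35 on the log2 scale) and the liver marker Afp (1.44) rose too, and the summed liver level was 708 in Rptor-deficient replicate 3 against 185 and 186 in the other replicates. In the Tfam line all 6 epithelial markers had negative log2 fold changes, and 1 passed the threshold (4 at an unadjusted p below 0.05 in limma). Their summed level was 24423 to 27206 in control and 18263 to 22615 in deficient lungs. None of 8 macrophage markers passed the threshold there (4 at an unadjusted p below 0.05 in limma). Other marker lists also held calls in the Tfam line: 3 of 4 smooth muscle markers fell (20606 to 23824 and 15591 to 18319), and of 6 heart muscle markers 1, Nppa, rose by 2.29 on the log2 scale (summed level 2948 to 7903 and 5084 to 15367). In the Cox10 line no marker of either list passed in limma (5 of 6 epithelial and 1 of 8 macrophage markers at an unadjusted p below 0.05), and replicate 3 of the Cox10-deficient lungs stood apart from the other two, with an epithelial sum of 18339 against 11195 and 12217 and an endothelial sum of 30888 against 21428 and 19675. In such bulk samples, fewer cells of a type and less RNA per cell cannot be told apart.

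Per kilobase of merged exons, Txnrd1 and Cat had the highest control levels of the 10 genes. The mean of the control lungs was 754 to 1258 normalised reads per kilobase for Txnrd1 and 931 to 1207 for Cat over the 3 lines. Nfe2l2 (469 to 713), Gsr (404 to 687), Hmox1 (376 to 611) and Gclc (347 to 381) formed a middle range that overlapped from gene to gene. Gclm (121 to 182), Nqo1 (104 to 130), Sod2 (102 to 123) and Srxn1 (103 to 116) were lowest, and their ranges overlapped except for those of Gclm and Srxn1. Each line was scaled in a table of its own, so these ranges are a description, and the exon lengths are those of GENCODE M21 on GRCm38. The coefficient of variation within a group was 5.41% to 30.9% for Hmox1, the upper end coming from Cox10-deficient lungs with 1 high replicate, and 1.51% to 13.0% for Nqo1. It was smaller for Cat (2.67% to 5.14%) and Sod2 (2.36% to 5.32%).

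The Rptor line was compared first, to ask how loss of mTORC1 function in the epithelium moves these genes. Of the 10 genes, 7 passed the threshold of a limma adjusted p below 0.05, where 34.8% of all genes tested did. Gclc, Gsr, Txnrd1, Nfe2l2 and Sod2 fell (background 18.2%), Hmox1 and Nqo1 rose (background 16.6%), and Gclm, Srxn1 and Cat did not pass. The same 7 had no overlap between the 3 control and the 3 deficient values, which held for 50.3% of all genes tested. The median log2 fold change was -0.13 over the 10 genes and 0.0082 over all genes tested. All fold changes are deficient minus control on the log2(value + 1) scale.

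Gclc (chr9:77754535-77794485, plus strand, GRCm38), the catalytic subunit of glutamate-cysteine ligase, had the largest fall of the 10. It was measured at 1452, 1456 and 1378 normalised reads in control and 871, 940 and 984 in Rptor-deficient lungs. Every deficient lung was below every control lung by a wide gap, and the mean went from 1428 ± 44.0 (SD, n = 3) to 932 ± 57.1 (n = 3). The log2 fold change was -0.62 (SE 0.069, adjusted p in limma = 0.000465). Gclm (chr3:122245557-122270732, plus strand), the modifier subunit, did not pass the threshold: 825, 827 and 864 normalised reads in control and 799, 861 and 954 in deficient lungs, a log2 fold change of 0.05 with a 95% interval of -0.13 to 0.24 (limma adjusted p = 0.656). The ratio of Gclc to Gclm was 1.76, 1.76 and 1.59 in control and 1.09, 1.09 and 1.03 in Rptor-deficient lungs. The RNA of the catalytic subunit was thus lower relative to that of its partner in all 3 deficient lungs. Epithelial markers fell further than Gclc in these lungs, and the ratio of Gclc to their summed level was 0.0436 ± 0.00291 in control and 0.0714 ± 0.0140 in deficient lungs (SD, n = 3). The mean of this ratio was also higher in deficient lungs of the other lines, where Gclc did not pass the threshold. It was 0.0559 ± 0.00597 and 0.0701 ± 0.00885 in the Tfam line and 0.0757 ± 0.00417 and 0.0982 ± 0.0247 in the Cox10 line. Cox10-deficient replicate 3, at 0.0701, lay below every control of its line. The part of the marker change in the fall of Gclc was not tested.

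The promoters of these genes were read for the core of the antioxidant response element, written TGACNNNGC and searched on both strands from 250 bases before to 50 bases after each RefSeq start (GRCm38.p6). The element TGATGNAA was searched in the same windows for the stress factor ATF4. The response element core occurred in 12.4% of all 32851 promoters and the ATF4 element in 3.97%. Promoters were matched for 7 of the 10 genes, Hmox1, Gclc and Gsr being the unmatched ones. The core was found for Nfe2l2, Gclm, Txnrd1 (in 1 of its 3 promoters) and Srxn1, and the ATF4 element for none. For Nqo1, Sod2 and Cat these letters are not in the window. The core is shown in capitals for a gene that did not pass in any line (Gclm) and for a pair of genes that fell in the Rptor line. Each stretch is read 5′ to 3′ on the strand of its gene, and a core in the other orientation appears as its reverse complement.
Gclm, chr3:122245393-122245461, plus strand: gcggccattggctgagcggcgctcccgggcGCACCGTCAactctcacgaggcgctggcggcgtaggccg
Txnrd1, chr10:82859084-82859152, plus strand: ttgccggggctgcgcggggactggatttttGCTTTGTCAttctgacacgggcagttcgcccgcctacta
Nfe2l2, chr2:75704865-75704913, minus strand: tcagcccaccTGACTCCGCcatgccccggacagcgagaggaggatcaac
The first base of the core lies at -134 for Gclm, -92 for Txnrd1 and -240 for Nfe2l2 relative to the start, and at 29 for Srxn1. Of the 4 genes with the core, Nfe2l2 and Txnrd1 fell in the Rptor line and Gclm and Srxn1 did not pass. A match of letters is a description and not evidence of binding.

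Gsr and Txnrd1, which encode reductases of the glutathione and thioredoxin systems, also fell in Rptor-deficient lungs. The log2 fold changes of the other thioredoxin reductase genes listed, Txnrd2 and Txnrd3, were -0.16 and -0.10 there. Gsr (chr8:33652523-33698163, plus strand) was at 1928, 1810 and 1937 normalised reads in control and 1207, 1253 and 1395 in deficient lungs. The groups were far apart, with means of 1892 ± 70.5 and 1285 ± 98.1 (SD, n = 3) and a log2 fold change of -0.56 (SE 0.071, adjusted p in limma = 0.000787). Txnrd1 (chr10:82833951-82897712, plus strand) was at 7460, 8056 and 8067 normalised reads in control and 5417, 5900 and 5743 in deficient lungs. Its mean fell by 27.7%, from 7861 ± 347 to 5687 ± 246 (SD, n = 3), a log2 fold change of -0.47 (SE 0.057, adjusted p in limma = 0.000649). Srxn1 (chr2:152105516-152111376, plus strand), which acts on peroxiredoxins and not on either reductase system, was at 308, 272 and 294 normalised reads in control and 316, 350 and 298 in deficient lungs. Its groups overlapped, and the log2 fold change was 0.14 with a 95% interval of -0.10 to 0.38 (limma adjusted p = 0.335). Thus the interval for Srxn1 does not reach the falls measured for Gsr and Txnrd1. The part of the marker change in the falls of Gsr and Txnrd1 was not tested.

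Nfe2l2 (chr2:75675513-75704641, minus strand), the gene of NRF2, was at 2320, 2505 and 2395 normalised reads in control and 1932, 1904 and 2179 in Rptor-deficient lungs. The groups did not overlap, and the mean fell by 16.7%, a log2 fold change of -0.26 (SE 0.068, adjusted p in limma = 0.0174). The call was lost in 3 of 6 fits that each left out a sample, with adjusted p = 0.0665 without control replicate 2, 0.0528 without control replicate 3 and 0.0607 without deficient replicate 2. NRF2 protein, whose amount is mainly set by its breakdown, was not measured here.

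Nqo1 and Hmox1, classical NRF2 targets, moved opposite to Nfe2l2. Nqo1 (chr8:107388225-107403206, minus strand) was at 189, 213 and 202 normalised reads in control and 271, 278 and 279 in Rptor-deficient lungs. The deficient values were tightly grouped above all controls, and the mean went from 201 ± 11.7 to 276 ± 4.17 (SD, n = 3), a log2 fold change of 0.45 (SE 0.10, adjusted p in limma = 0.0100). Hmox1 (chr8:75093621-75100589, plus strand) was at 1027, 857 and 1183 normalised reads in control and 1937, 1369 and 1838 in deficient lungs. It scattered more but did not overlap, and its log2 fold change of 0.74 (SE 0.15, adjusted p in limma = 0.00644) was the largest rise of the 10. Heme oxygenase 1 frees iron from heme and is high in macrophages that clear red cells. The ratio of Hmox1 to the summed macrophage markers was 0.221, 0.192 and 0.239 in control and 0.248, 0.189 and 0.211 in Rptor-deficient lungs; the groups overlapped. Mesenchymal and endothelial markers rose in the same lungs as well, and the part of any of these in the rise of Hmox1 was not tested. Of the 7 red cell markers tested none passed the threshold in limma (0 at an unadjusted p below 0.05). Their log2 fold changes were positive for 6 and negative for 1. The groups did not overlap for Slc4a1 (0.60, unadjusted p in limma = 0.0513). Hba-a1 and Hba-a2 were at 0 in all lungs of this line and were not tested. The ratio of Hmox1 and those of Gclc were computed after the values had been seen.

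Of the enzymes that remove superoxide and hydrogen peroxide, Sod2 fell in the Rptor line and Cat did not pass. Sod2 (chr17:13006846-13040063, plus strand) was at 1241, 1182 and 1208 normalised reads in control and 975, 1083 and 1019 in deficient lungs. The groups did not overlap and the log2 fold change was -0.24 (SE 0.066, adjusted p in limma = 0.0231). This call was lost in 4 of 6 fits that each left out a sample, with adjusted p between 0.0507 (without control replicate 2) and 0.0813 (without control replicate 1), and 0.0693 without control replicate 3 and 0.0589 without deficient replicate 3. Cat (chr2:103453849-103485160, minus strand) was at 2515, 2633 and 2457 normalised reads in control and 2507, 2391 and 2626 in deficient lungs. The values lay in the same range, and the 95% interval of the log2 fold change (-0.02) was -0.15 to 0.12 (limma adjusted p = 0.853). The calls of Gclc, Gsr, Txnrd1, Nqo1 and Hmox1 were kept in all 6 such fits, with highest adjusted p of 0.00448, 0.00541, 0.00556, 0.0397 and 0.0287.

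**Figure D1:**
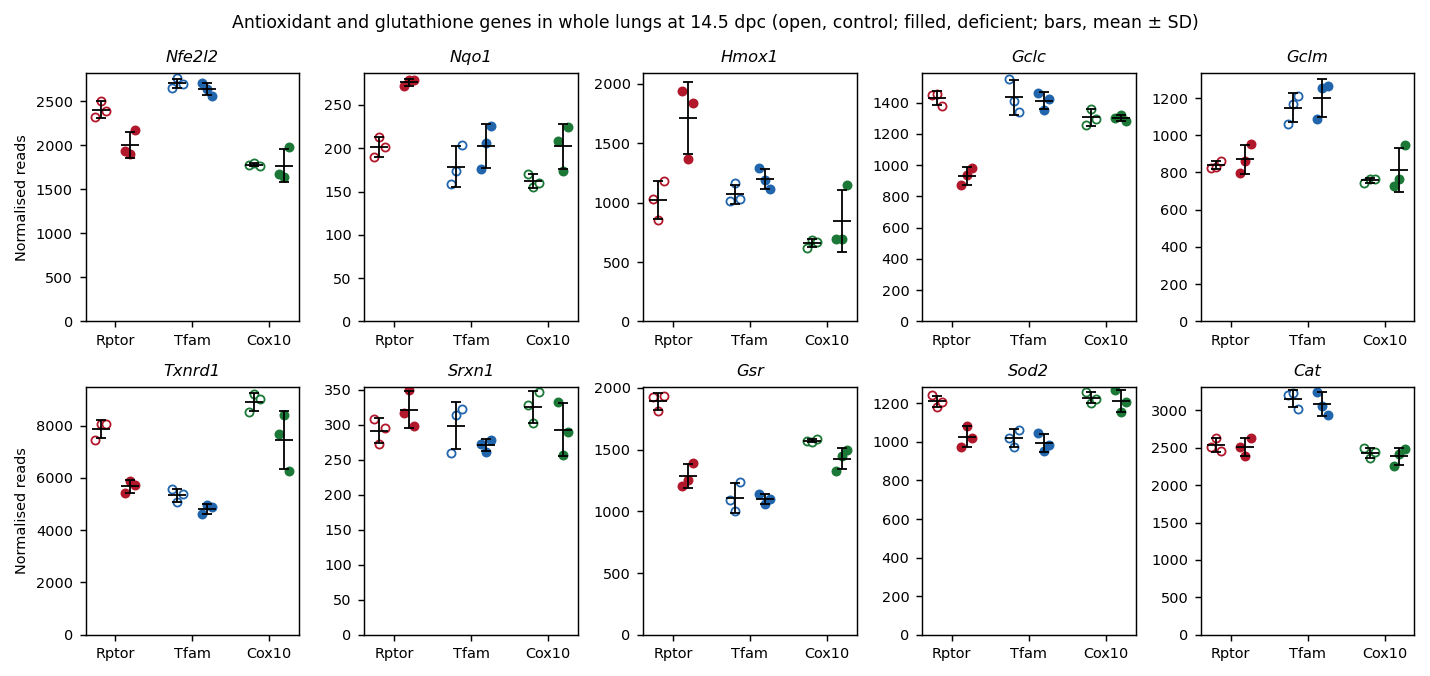
Normalised reads (linear axes from 0) of the 10 antioxidant and glutathione genes in each of 18 lungs, by line; open circles are control lungs, filled circles deficient lungs, and bars the mean ± SD of 3. In the Rptor line Gclc, Gsr and Txnrd1 lie wholly below control and Hmox1 and Nqo1 wholly above, while Gclc lies at the same level in both groups of the Tfam and Cox10 lines.

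The Tfam line was compared to ask whether the same genes move when mitochondrial DNA is not maintained. None of the 10 genes passed the threshold in limma, where 4.66% of all genes tested did (2.03% with a higher and 2.63% with a lower value). Txnrd1 alone of the 10 (1 gene) had an unadjusted p below 0.05, against 17.4% of all genes tested. Txnrd1 was also the only 1 of the 10 with no overlap between groups, against 22.8% of all genes tested, at 5568, 5080 and 5385 normalised reads in control and 4605, 4976 and 4872 in Tfam-deficient lungs. Its deficient values lay close below the lowest control, with a log2 fold change of -0.15 (SE 0.059, adjusted p in limma = 0.214).

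Gclc was at 1554, 1410 and 1338 normalised reads in control and 1461, 1356 and 1425 in Tfam-deficient lungs. The groups overlapped fully, and the 95% interval of the log2 fold change (-0.17 to 0.14) does not reach the -0.62 of the Rptor line. Gsr was at 1093, 1000 and 1241 normalised reads in control and 1137, 1056 and 1096 in deficient lungs, again with full overlap and an interval of -0.20 to 0.17. Hmox1 was at 1013, 1163 and 1031 in control and 1288, 1192 and 1115 in deficient lungs. Here a single control exceeded the lowest deficient lung, and the log2 fold change was 0.17 (95% interval -0.01 to 0.34, limma adjusted p = 0.308). Nqo1 was at 158, 174 and 204 in control and 176, 206 and 226 in deficient lungs (log2 fold change 0.18, limma adjusted p = 0.537). The log2 fold changes of the other 5 genes lay between the -0.13 of Srxn1 and the 0.07 of Gclm, and the median over the 10 genes was -0.03.

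Deletion of Cox10, which removes an assembly factor of the respiratory chain, gave no call among the 10 genes in limma either, where 0.475% of all genes tested passed (0.141% with a higher and 0.335% with a lower value). Nqo1, Txnrd1 and Gsr (3 of 10) had an unadjusted p below 0.05, against 13.0% of all genes tested. Groups did not overlap for these 3 and Hmox1, against 21.4% of all genes tested. Nqo1 was at 171, 155 and 160 normalised reads in control and 209, 174 and 224 in Cox10-deficient lungs, which gave 0.31 (SE 0.13, adjusted p in limma = 0.370) as log2 fold change. Txnrd1 was at 8521, 9206 and 9005 in control and 7681, 8409 and 6253 in deficient lungs, which gave -0.27 (SE 0.10, adjusted p in limma = 0.348) as log2 fold change. Thus the deficient lungs were above every control for Nqo1 and below every control for Txnrd1, without passing the threshold. Gsr was at 1566, 1562 and 1584 in control and 1330, 1445 and 1499 in deficient lungs, which gave -0.14 (SE 0.058, adjusted p in limma = 0.365) as log2 fold change.

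Hmox1 was at 619, 689 and 668 normalised reads in control and 697, 694 and 1149 in Cox10-deficient lungs. The groups did not overlap with or without deficient replicate 3, the lung that stood apart in its markers, but most of the mean difference came from it. The log2 fold change was 0.32 with it (limma adjusted p = 0.484) and 0.08 without it (0.649). The same lung had the lowest Txnrd1 and the highest Gclm (947 normalised reads against 730 and 764) and Nfe2l2 (1981 against 1675 and 1643) of the Cox10-deficient group. Without it the log2 fold change of Txnrd1 was -0.15 (limma adjusted p = 0.247), and none of the 10 genes passed. Gclc was at 1259, 1361 and 1297 in control and 1302, 1321 and 1286 in deficient lungs, the smallest change of the 10, with a 95% interval of -0.12 to 0.12.

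The difference between the effects of a pair of deletions was tested in 1 limma fit of all 18 samples over 14548 genes. Gclc and Gsr differed between the Rptor line and each of the other lines. The effect on Gclc was lower by 0.60 on the log2 scale in the Rptor than in the Tfam line (difference -0.60, SE 0.089, adjusted p in limma = 0.000502) and likewise against the Cox10 line (-0.62, SE 0.089, adjusted p in limma = 0.000418). For Gsr the difference was -0.54 against the Tfam line (SE 0.10, adjusted p in limma = 0.00348) and -0.42 against the Cox10 line (SE 0.10, adjusted p in limma = 0.0212). The last of these was no longer called without Rptor control replicate 1 (adjusted p = 0.0508) or Cox10 control replicate 1 (0.0503). These 2 of 10 genes compare with 11.2% of all genes for the Rptor and Tfam lines and 7.49% for the Rptor and Cox10 lines. None of the 10 genes differed between the Tfam and Cox10 lines in limma (0 at an unadjusted p below 0.05), and 0.0550% of all genes did.

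For the other genes past the threshold in the Rptor line the difference between lines was not called in the fit without a replicate block. For Txnrd1 it was -0.32 against the Tfam line (95% interval -0.56 to -0.08, limma adjusted p = 0.0771) and -0.20 against the Cox10 line (-0.44 to 0.04, adjusted p = 0.312). For Hmox1 it was 0.58 against the Tfam line (0.08 to 1.07, limma adjusted p = 0.118) and 0.42 against the Cox10 line (-0.07 to 0.91, adjusted p = 0.295). The Hmox1 difference from the Tfam line was called with the replicate number as a block (limma adjusted p = 0.0409) and without Rptor-deficient replicate 2 (0.73, adjusted p = 0.0493), and that of Txnrd1 from the Tfam line without Cox10-deficient replicate 2 (adjusted p = 0.0409). For Nqo1 it was 0.27 and 0.14, with intervals of -0.09 to 0.64 and -0.22 to 0.50. Nfe2l2 and Sod2 had differences whose 95% intervals lay below 0, without a call. They were -0.23 (-0.43 to -0.03, limma adjusted p = 0.122) and -0.25 (-0.45 to -0.05, adjusted p = 0.118) for Nfe2l2 against the Tfam and Cox10 lines. For Sod2 they were -0.20 (-0.38 to -0.03, limma adjusted p = 0.127) and -0.22 (-0.40 to -0.04, adjusted p = 0.125). Leaving out Cox10-deficient replicate 3 raised the number of genes called to 5 against the Tfam line (Txnrd1, Hmox1 and Nfe2l2 added) and to 4 against the Cox10 line (Txnrd1 and Hmox1 added). Against the Cox10 line the differences then were -0.32 for Txnrd1 (limma adjusted p = 0.0187) and 0.66 for Hmox1 (adjusted p = 0.0231).

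**Figure D2:**
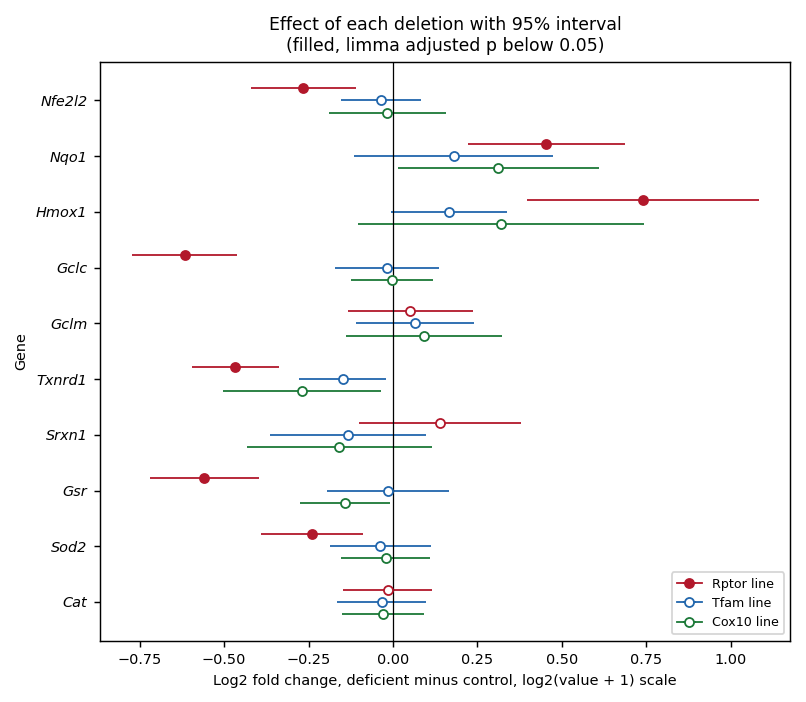
Log2 fold change (horizontal axis, deficient minus control, log2(value + 1) scale) of the 10 genes in the 3 lines, with 95% intervals from limma; filled circles passed an adjusted p below 0.05. Only Rptor-line points are filled, and for Gclc and Gsr the Rptor interval lies apart from both other intervals.

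The genes around these 10 were read in 6 lists that hold 100 genes, of which 96 were tested in the Rptor line. There, 34 of 96 (35.4%) passed the limma threshold, 17 higher and 17 lower, close to the 34.8% of all genes, and their median log2 fold change was 0.0031. With every sample in the fit, the lists as a whole therefore did not stand out from the background, while single genes moved strongly. The count was 22 to 34 when each sample was left out in turn. The largest fall was that of Gpx2, a glutathione peroxidase of epithelia, at 481, 298 and 304 normalised reads in control and 24.5, 19.8 and 20.8 in Rptor-deficient lungs. This is a log2 fold change of -3.97 (SE 0.21, adjusted p in limma = 2.16e-05), further than any of the epithelial markers, whose log2 fold changes were -1.89 to -0.77. Of the 12 peroxidase, glutaredoxin and glyoxalase genes 2 others passed, both higher: Gpx3, the secreted peroxidase, with 0.35 and Gpx7, of the endoplasmic reticulum, with 0.26.

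Of the 12 genes of glutathione supply and turnover, 2 rose and 3 fell in the Rptor line (41.7% called, against 34.8% of all genes tested). Ggt5, which cleaves glutathione conjugates outside the cell, was at 29.9, 23.0 and 38.8 normalised reads in control and 152, 124 and 143 in deficient lungs. It was the largest rise in the 6 lists, with a log2 fold change of 2.18 (SE 0.22, adjusted p in limma = 0.000286). Oplah, which returns oxoproline to glutamate, rose by 0.53 on the log2 scale. Ggt1 (-0.75), Ggct (-0.64) and Cth (-0.58), the last of which makes cysteine from cystathionine, fell with limma adjusted p of 0.0417, 0.0206 and 0.0488. Slc7a11, the cystine carrier, was at 37.9, 29.97 and 28.8 normalised reads in control and 17.3, 30.7 and 28.7 in deficient lungs, which overlapped.

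Among 21 genes of the thioredoxin, peroxiredoxin and related enzymes, 3 rose and 5 fell in the Rptor line (38.1% called, against 34.8%). Txn1, the cytosolic thioredoxin that TXNRD1 reduces, was at 8037, 7804 and 7338 normalised reads in control and 5190, 5355 and 5817 in Rptor-deficient lungs (log2 fold change -0.50, limma adjusted p = 0.000670). It thus fell along with its reductase, and the part of the marker change in this fall was not tested. The peroxiredoxins Prdx1 (-0.41) and Prdx6 (-0.36), which reduce peroxides, fell too. Txnip, which binds and blocks thioredoxin, rose by 0.49, the sestrin Sesn1 by 0.45 and Prdx5 by 0.24 on the log2 scale. Of the 18 glutathione transferases tested (22 listed), which attach glutathione to other molecules, Gstm2 (0.47) and Gstm1 (0.31) rose and Gstt3 (-0.60) and Gsta4 (-0.42) fell (22.2% called, against 34.8%). The transferases are close paralogs, and how reads shared between them were counted is not stated.

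Of the 12 regulators and partners of NRF2, 4 rose and 1 fell in the Rptor line (41.7% called, against 34.8%). Bach1, which represses Hmox1 and other NRF2 targets, was at 1446, 1558 and 1411 normalised reads in control and 2389, 1914 and 1949 in deficient lungs (log2 fold change 0.50, limma adjusted p = 0.00419). Maff, a small MAF partner, rose by 0.72 and Sqstm1, which binds KEAP1, by 0.40 on the log2 scale, while Cul3, of the ligase that marks NRF2 for breakdown, fell by 0.22. Keap1 itself was at 2486, 2348 and 2500 in control and 2381, 2395 and 2498 in deficient lungs, which overlapped. Of 21 further known NRF2 targets, 4 rose and 5 fell (42.9% called, against 34.8%). Slc40a1, the iron exporter ferroportin, was at 1184, 1201 and 1214 in control and 2035, 2116 and 1980 in deficient lungs (log2 fold change 0.77, limma adjusted p = 6.77e-05). Blvrb, a biliverdin reductase, rose by 0.55 and Aox1 by 1.49 on the log2 scale. The part of the macrophage markers, all 8 of which rose in these lungs, was not tested. Tkt (-0.38) and Taldo1 (-0.36), of the pentose phosphate pathway, and the exporter Abcc4 (-0.48) fell.

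**Figure D3:**
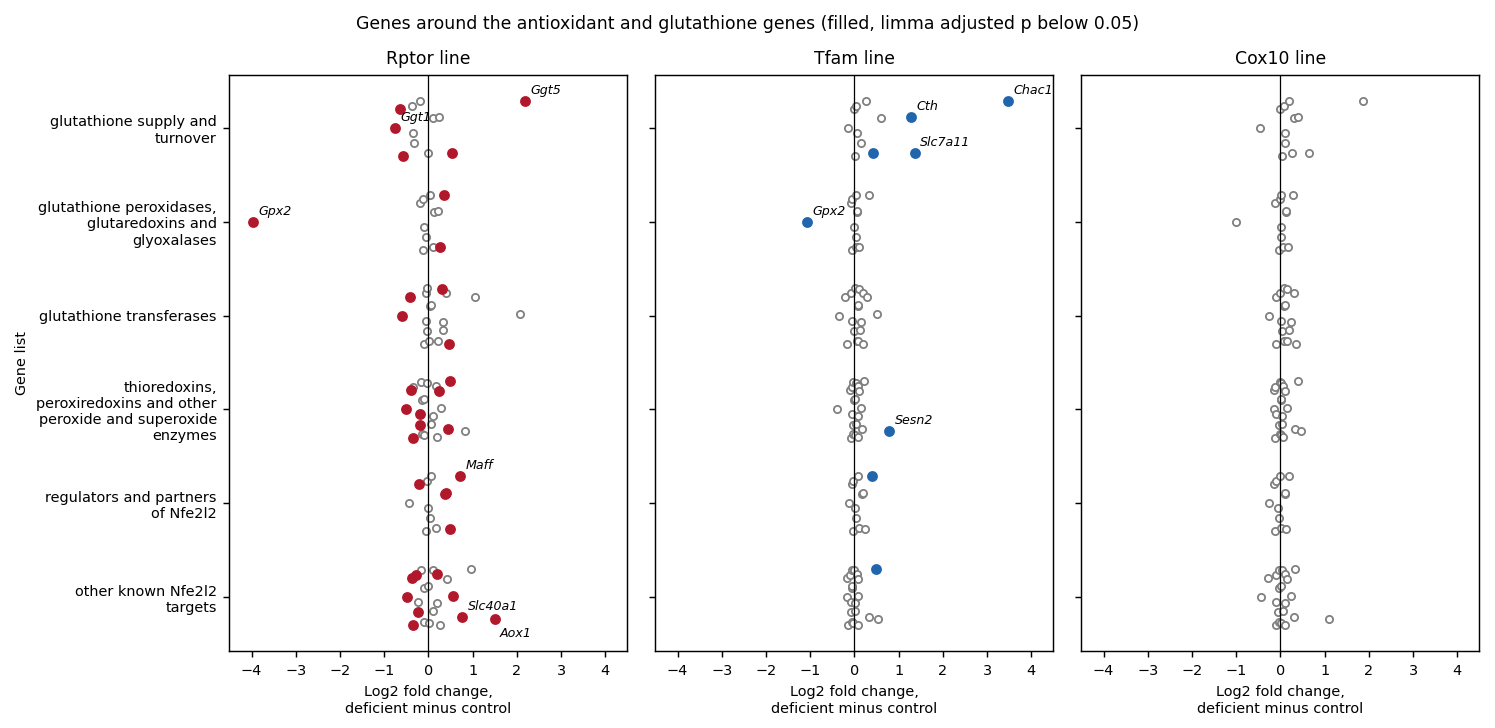
Log2 fold change (horizontal axis, deficient minus control) of every tested gene in the 6 lists, 1 circle per gene, in the 3 lines; filled circles passed a limma adjusted p below 0.05, and named genes beyond 0.7 in either direction are written beside their circle. In the Rptor line 34 circles are filled on both sides of 0, in the Tfam line 8 with 4 of them in the supply list, and in the Cox10 line none.

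In Tfam-deficient lungs, where none of the 10 genes was called, Chac1, Slc7a11, Cth and Slc3a2 rose among the 12 genes of glutathione supply and turnover (4 of 12 or 33.3%, against 2.03% of all genes tested), and the other 8 did not pass. Over the 6 lists 7 genes rose and 1 fell of 96 (8.33%, against 4.66%), and the count was 7 to 13 when each sample was left out in turn. Chac1, which breaks down glutathione in the cytosol and is induced by the stress factor ATF4, was at 29.5, 29.3 and 28.0 normalised reads in control and 341, 347 and 307 in Tfam-deficient lungs. The 3 deficient lungs were more than 10-fold above the controls, a log2 fold change of 3.47 (SE 0.13, adjusted p in limma = 3.31e-07). Slc7a11 was at 36.6, 36.4 and 38.0 in control and 116, 84.4 and 91.9 in deficient lungs (log2 fold change 1.36, limma adjusted p = 0.00107). Cth was at 106, 97.0 and 109 in control and 262, 232 and 265 in deficient lungs (1.28, limma adjusted p = 0.000109). All 3 genes lay wholly above control. Slc3a2, the heavy chain that pairs with SLC7A11, completed the 4, with 2614, 2769 and 2529 in control and 3565, 3808 and 3289 in deficient lungs (0.43, limma adjusted p = 0.00391). Cysteine made or taken up by these proteins is the substrate of glutamate-cysteine ligase, yet neither Gclc nor Gclm (log2 fold changes -0.02 and 0.07) passed in these lungs.

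The ATF4 element TGATGNAA was found in the promoters of 2 of the 9 supply genes with a RefSeq promoter, Slc7a11 and Chac1, both of which rose in the Tfam line. They are shown with the element in capitals, 5′ to 3′ on the strand of the gene (GRCm38.p6).
Slc7a11, chr3:50443623-50443709, minus strand: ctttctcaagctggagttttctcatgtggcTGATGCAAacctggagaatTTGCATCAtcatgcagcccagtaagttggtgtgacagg
Chac1, chr2:119351019-119351086, plus strand: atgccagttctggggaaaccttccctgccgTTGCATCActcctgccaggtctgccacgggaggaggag
Slc7a11 holds the element in both orientations, with first bases at -66 and -47 from the start, and Chac1 holds it once, at -193. The promoter of Slc3a2, which also rose, does not hold these letters, and none was matched for Cth. The element lies in 3.97% of all promoters, as given above, and in no other matched promoter of the 6 lists.

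The other calls in the Tfam line were single genes. Gpx2 fell, from 475, 421 and 428 normalised reads in control to 201, 214 and 216 in deficient lungs (log2 fold change -1.06, limma adjusted p = 7.82e-05). Sesn2, a sestrin that restrains mTORC1 and is also induced by ATF4, rose by 0.78, Mafg by 0.39 and Slc40a1 by 0.49 on the log2 scale. No glutathione transferase was called (0 of 18 in limma, 2 at an unadjusted p below 0.05).

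In Cox10-deficient lungs 0 of 94 tested genes of the 6 lists passed in limma (0 to 2 with a sample left out, 0 to 3 under the other alternatives given below). Of the 94, 12 (12.8%) had an unadjusted p below 0.05, near the 13.0% of all genes tested. Of these, 5 were among the 12 supply and turnover genes (41.7%). In that list 5 of 12 genes, 4 of them shared with the former 5, had no overlap between groups, against 21.4% of all genes tested. The 8 genes of these lists called in the Tfam line were read here after their values were seen. Chac1 was at 14.9, 19.2 and 19.99 normalised reads in control and 42.9, 76.4 and 95.9 in Cox10-deficient lungs (log2 fold change 1.87, limma adjusted p = 0.0607). Sesn2 was at 477, 478 and 460 in control and 598, 594 and 672 in deficient lungs (0.39, limma adjusted p = 0.0888). Gpx2 was at 405, 424 and 424 in control and 176, 158 and 316 in deficient lungs (-1.01, limma adjusted p = 0.152). For these 3 genes and for Cth (0.41, limma adjusted p = 0.286) the groups did not overlap, against 21.4% of all genes tested, and none was called. Groups overlapped for the other 4, with log2 fold changes of 0.03 (Slc7a11), 0.09 (Slc3a2), 0.11 (Mafg) and 0.24 (Slc40a1), against 1.36, 0.43, 0.39 and 0.49 in the Tfam line. In the Rptor line Chac1 was instead at 21.9, 16.0 and 18.9 in control and 13.3, 12.9 and 18.8 in deficient lungs, which overlapped.

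**Figure D4:**
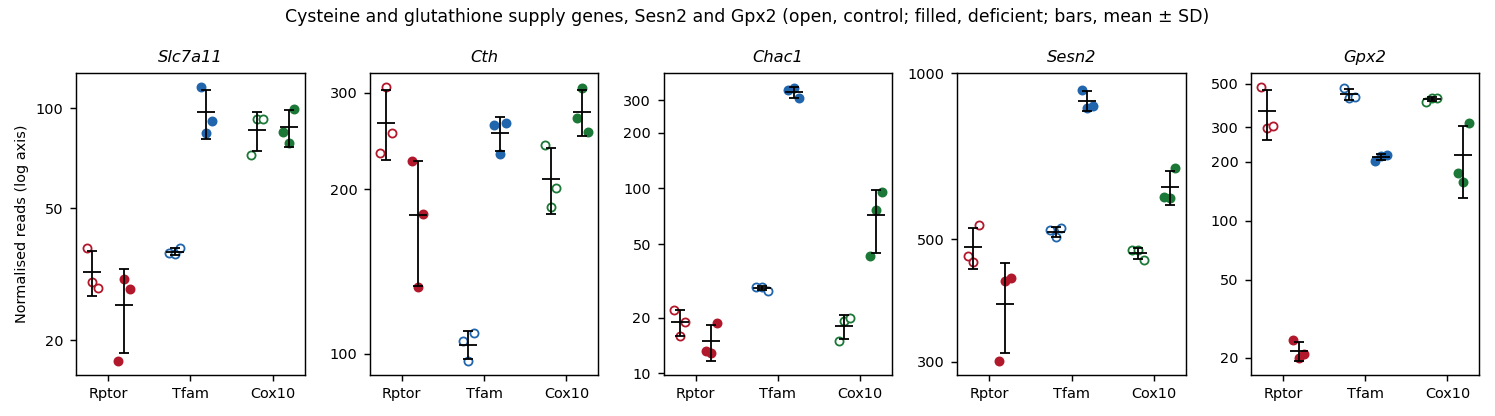
Normalised reads (log axes) of Slc7a11, Cth, Chac1, Sesn2 and Gpx2 in each of 18 lungs, by line; open circles are control lungs, filled circles deficient lungs, and bars the mean ± SD of 3. Slc7a11, Cth, Chac1 and Sesn2 lie above control in all 3 Tfam-deficient lungs, and Gpx2 lies below control in the deficient lungs of every line.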

How the data were processed

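RNA-seq had been performed on whole lungs at 14.5 dpc, 3 control and 3 deficient samples in each of 3 lines. For each line the authors deposited a table of normalised signal, that is, reads per gene over a library size factor. Below 1000, 100% of a sample's values lay within 0.1 step of a whole multiple of a common step (0.978 to 1.02). The submitters' processing notes name Trim Galore, HISAT2, featureCounts, DESeq2 and the build mm10, without versions or annotation. The tables also hold the authors' log2 fold changes, p-values and adjusted p-values, which were not used. The labels name an Illumina library protocol, whereas the study's methods name a BGI sequencer.

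Groups were taken from sample titles. Lines were fitted separately with limma 3.58.1 under R 4.3.3 (lmFit, eBayes with a mean-variance trend) on log2(value + 1), for genes with a value of at least 10 in at least 3 of 6 samples, with Benjamini-Hochberg adjustment over all genes of the line. Low genes have their change understated on this scale. Differences between lines were contrasts in a fit of 6 groups. Tests were two-sided, and the fits were tested on simulated data. Totals of 27725300 to 29608800 per sample limit the precision of low genes. From every table, 4 rows with duplicated symbols were left out.

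The 10 genes in each line were described, and from each list and line up to 3 rises and 3 falls past the threshold without overlap between groups, plus genes chosen after their values were seen: Slc3a2 in the Tfam line, Slc7a11, Keap1 and Chac1 in the Rptor line, and the 8 list genes read in the Cox10 line. The members and lists were chosen with earlier results of these data known. Adgre1, Hbb-bs and Epb42 were matched by older symbols, and Hbb-bt and Ahsp were not matched. Samples with the same replicate number deviated together in the Rptor line (correlations 0.221, 0.330 and 0.259 of deviations from group means, the numbers being from the titles), and not in every pair of the Tfam (-0.312, -0.207 and 0.151) and Cox10 (0.447, 0.202 and 0.0487) lines. Alternatives were another scaling, filters, pseudocounts of 0.1 and 10, the replicate block, Xist as a covariate, all samples in a single fit and leaving out each sample.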

Additional observations from a re-analysis of the deposited data

Results flagged for a closer look

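The results given here are differences between the effects of 2 deletions that passed a limma adjusted p below 0.05, as differences of log2 fold changes, first line minus second. Between the Rptor and Tfam lines Gclc (-0.60) and Gsr (-0.54) differed, as did Slc7a11 (-1.71), Cth (-1.86), Chac1 (-3.80), Ggt5 (1.57), Gpx2 (-2.90), Txn1 (-0.61), Prdx6 (-0.32), Sesn1 (0.27) and Sesn2 (-1.14) of the surrounding lists. Between the Rptor and Cox10 lines Gclc (-0.62) and Gsr (-0.42) differed, together with Cth (-0.99), Chac1 (-2.20), Ggt5 (1.53), Gpx2 (-2.95), Txn1 (-0.49), Prdx1 (-0.41), Prdx6 (-0.26), Sesn1 (0.33), Sesn2 (-0.75), Bach1 (0.47) and Tkt (-0.35). The 9 list genes of the first pair are 9.68% and the 11 of the second 11.8% of the 93 list genes tested in all lines, against 11.2% and 7.49% of all genes tested, and no test sets the lists apart. The part of the marker shifts in these differences was not tested.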

How the results depend on the processing

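The count of the 10 genes past the threshold stayed at 7 (Rptor line) and 0 (Tfam and Cox10 lines) under all 8 alternatives that kept every sample, and ranged from 5 to 7, 0 to 0 and 0 to 0 when each sample was left out in turn. When samples were left out, counts over the 6 lists ranged from 22 (without Rptor control replicate 2) to 34 in the Rptor line, from 7 to 13 (without Tfam control replicate 3) in the Tfam line and from 0 to 2 (without Cox10-deficient replicate 3) in the Cox10 line. There the Xist covariate gave 1 and a fit of all 18 samples 3. Alternatives with every sample gave 28 to 39 in the Rptor and 7 to 9 in the Tfam line. Genes with differing effects ranged from 2 to 5 for the Rptor and Tfam lines, and from 1 (without Rptor control replicate 1 or Cox10 control replicate 1) to 4 for the Rptor and Cox10 lines; both highest counts left out Cox10-deficient replicate 3. With the replicate block the counts were 7, 0 and 0 for the 10 genes, 37, 8 and 0 for the lists, and 3, 2 and 0 for the differences, and Hmox1 was the added gene. Signs changed only in values near 0 that were never called. Scaling to equal totals gave 0.0083 for Gclc in the Cox10 line. Leaving out samples gave -0.016 to 0.11 for Gclm and -0.050 to 0.018 for Cat in the Rptor line, -0.067 to 0.041 for Gclc, -0.088 to 0.068 for Gsr and -0.072 to 0.0015 for Cat in the Tfam line, -0.10 to 0.033 for Nfe2l2, -0.028 to 0.028 for Gclc, -0.022 to 0.17 for Gclm, -0.056 to 0.013 for Sod2 and -0.060 to 0.0097 for Cat in the Cox10 line, and -0.065 to 0.043 for the Gclc difference between the Tfam and Cox10 lines. The cause of these changes was not tested. The 2 planned count tests were not run, because the recovery of whole reads was not accepted for steps this close to 1. With 3 samples a group, small changes remain undetectable.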
